A study of Mus musculus with 3 samples.

Results

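The genes described here are 37 mouse genes of amino acid supply and of the response to unfolded protein, taken as a named list of stress-response factors, amino acid transporters, enzymes of amino acid and one-carbon synthesis, and genes of protein folding and disposal in the endoplasmic reticulum (ER). Of these, 36 were measured, out of 19938 genes in the data, and Pycr1 was not analysed here. Members were matched by gene symbol, on a list drawn up with earlier results of these data known. A gene was represented by the mean of the array probes annotated with its symbol alone, which was 1 probe for every measured gene but Slc38a1, with 2.

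The cells were mouse CD4 T cells of the OT-II strain, B6.Cg-Tg(TcraTcrb)425Cbn/J, which carries a transgenic T-cell receptor for an ovalbumin peptide. Th17 cells were cultured with IL-6 and TGFβ, Th22 cells with IL-6 alone, and Th0 cells with neither cytokine. All 3 groups began as sorted naive spleen cells, CD4+CD25-CD62LhighCD44low, and were activated with the peptide on T-cell-depleted spleen cells of Il23a-/- mice, which lack a subunit gene of IL-23. After 60 hours, cells purified with magnetic beads gave total RNA for 1 single-colour Affymetrix array per group. No label used here gives the age of the mice or how many were pooled.

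Cells that run short of amino acids, or whose ER fills with unfolded protein, phosphorylate the translation factor eIF2α, which slows protein synthesis overall while the transcription factor ATF4 is translated more. ATF4, with C/EBP partners, then switches on amino acid transporters, serine, asparagine and proline synthesis, and feedback inhibitors, a program called the integrated stress response. A separate branch, run by ATF6 and by IRE1 through XBP1, raises ER chaperones and the machinery that removes misfolded proteins. In activated T cells the same transporters and enzymes feed growth and division.

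The values are the authors' deposited processed values, on what is taken to be a log2 scale, with each probe's median over the 3 arrays subtracted. A value of 0 is therefore the middle array of a gene and not a level, and only differences between arrays can be read. With 1 array per group there is no replicate check, no test was run, and precision is limited by the number of arrays. A difference of at least 2-fold is used as a rule of size, and 1.5-fold as a lower one. The only repeat measurement lies between probes of the same gene, taken as the first pair of probes of each of 999 genes with several. For 95% of these genes the pair lay within 0.36 log2 of each other in the difference between the Th17 and Th22 arrays. The bound was 0.30 between Th22 and Th0, and 0.39 between Th17 and Th0. That bound, here the probe bound, holds no variation between cultures. Probes equal on all arrays were included, which can make it narrower. Of all genes 37.7% were exactly equal on the 3 arrays, among them 10 of 67 ribosomal protein genes and 667 of 1027 olfactory receptor genes, so that an equal gene cannot be told from an undetected one.

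Differences of 2-fold were rare in the list, while spans of 1.5-fold to 2-fold were more frequent than among all genes. Only Nupr1 reached 2-fold between any of the arrays (2.78% of the list, against 3.7% of all genes). A span of 1.5-fold to 2-fold was found for 8 genes (22.2%, against 4.3%) and a smaller one for 24 (66.7%, against 54.3%), and Trib3, Slc36a1 and Xbp1 were equal on all 3 arrays (8.33%, against 37.7%). Among genes that differed, 8 of 33 in the list spanned 1.5-fold to 2-fold, against 857 of 12431. A smaller span was found for 24 of 33, against 10836 of 12431, which is a lower share in the list. The median span of the 33 genes that differed was 0.40 log2, against 0.15 log2 over all genes that differed. The differences mostly ran one way for the transporters and the synthesis enzymes. These were mostly highest in Th0 cells and lowest in Th22 cells, while the ER genes showed no common direction against Th0. Between Th17 and Th22, 4 of the 6 ER genes were higher in Th17 and 1 lower. In these bulk samples, fewer cells of a type and less RNA per cell cannot be told apart.

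**Figure D1:**
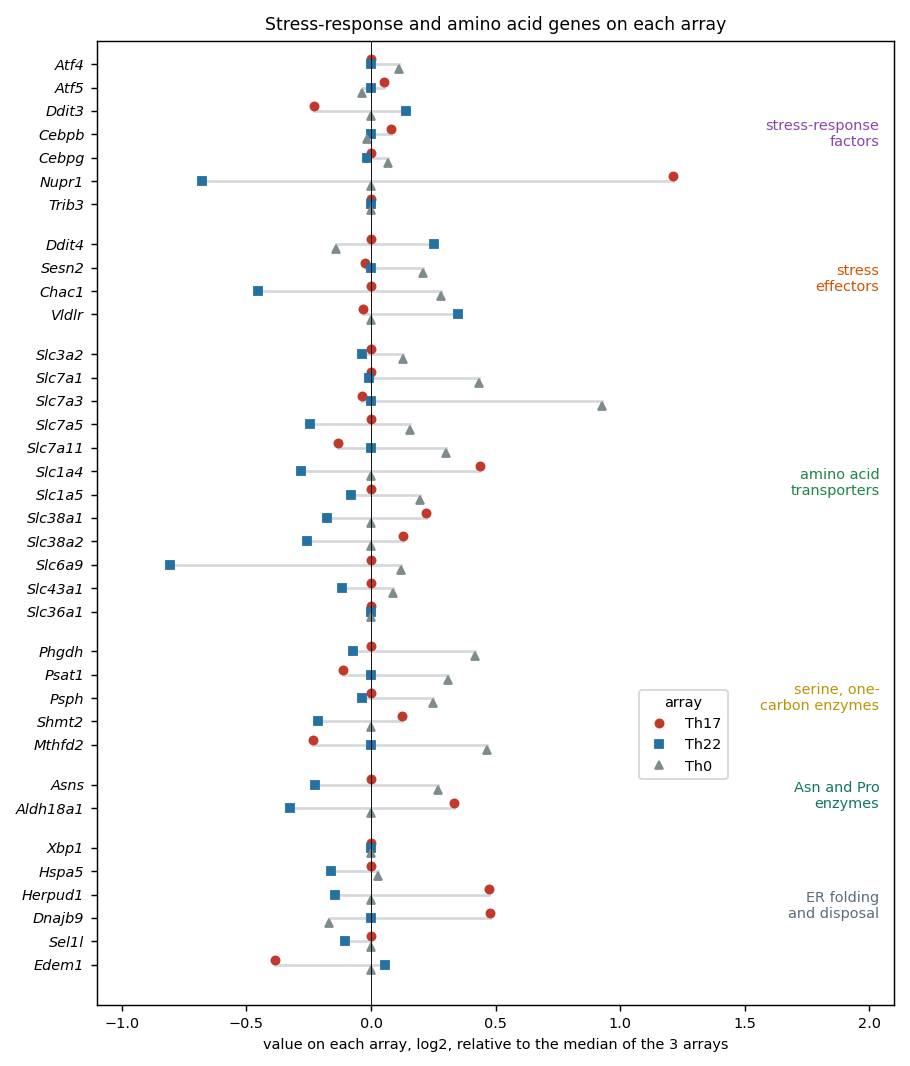
Each row is a gene, and the symbols give its value on the Th17, Th22 and Th0 arrays in log2, relative to the median of the 3 arrays, with 1 array per group and no error. Nupr1 is the gene with the widest span, from -0.68 in Th22 to 1.21 in Th17, and most transporters and serine enzymes have their highest symbol in Th0.

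In Th17 cells against Th22 cells, the comparison of IL-6 with TGFβ to IL-6 alone, 1 of the 36 genes was at least 2-fold higher and 0 were at least 2-fold lower. Among all genes 1.1% were higher and 1.5% lower by that rule, so the count of 1 is near the background. At 1.5-fold, 5 genes were higher in Th17 (13.9%, against 2.12% of all genes) and 0 lower (against 3.37%). These 5 were Nupr1, Slc6a9, Slc1a4, Aldh18a1 and Herpud1. The median difference of the 36 was 0.061 log2, against 0 over all genes. Higher by more than the probe bound were 9 genes (25%, against 3.83% of all genes), and lower by more than it were 3 (8.33%, against 6.13%). Among genes that differed between arrays these shares were 27.3% against 6.15% for higher and 9.09% against 9.84% for lower. At 1.5-fold they were 15.2% against 3.39% for higher and 0 against 5.40% for lower. Of the 33 genes that differed between arrays at all, 23 were higher and 9 lower in Th17 by any amount (69.7% and 27.3%), against 46.9% and 42.1% of all 12431 such genes.

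In Th22 cells against Th0 cells, which describes IL-6 alone, 0 of the 36 genes were 2-fold higher and 0 were 2-fold lower, with 0.547% and 0.261% of all genes past those marks. At 1.5-fold, 4 genes were lower in Th22 (11.1%, against 0.808% of all genes) and 0 higher (against 1.6%). The 4 were Slc6a9, Slc7a3, Chac1 and Nupr1. Of the 33 genes that differed between arrays, 26 were lower in Th22 and 7 higher by any amount (78.8% and 21.2%), against 50% and 38.1% of all such genes. The median difference of the 36 was -0.21 log2, against 0 over all genes. Lower by more than the probe bound were 11 genes (30.6%, against 2.86% of all genes), and higher by more than it were 2, Ddit4 and Vldlr (5.56%, against 4.81%). Among genes that differed between arrays these shares were 33.3% against 4.59% for lower and 6.06% against 7.71% for higher. At 1.5-fold they were 12.1% against 1.3% for lower and 0 against 2.57% for higher.

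In Th17 cells against Th0 cells, which describes both cytokines together, 1 gene of the 36 was 2-fold higher and 0 were 2-fold lower, with 1.47% and 1.56% of all genes past those marks. At 1.5-fold Nupr1 and Dnajb9 were higher in Th17 and Slc7a3 and Mthfd2 lower, which is 5.56% of the list in each direction, against 2.98% and 3.34% of all genes. Higher by more than the probe bound were 4 genes (11.1%, against 4.68% of all genes), and lower by more than it were 6 (16.7%, against 5.61%). Counting only genes that differed between arrays, these shares were 12.1% against 7.51% for higher and 18.2% against 9% for lower. The 1.5-fold shares were then 6.06% against 4.79% for higher and 6.06% against 5.35% for lower, so those counts are near the background. Of the 33 genes 21 were lower and 11 higher by any amount (63.6% and 33.3%), against 45% and 40.4% of all genes that differed. The median of the 36 was -0.079 log2, against 0. The Th22 and Th17 comparisons share the single Th0 array, so a low or high reading of that array enters both.

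**Figure D2:**
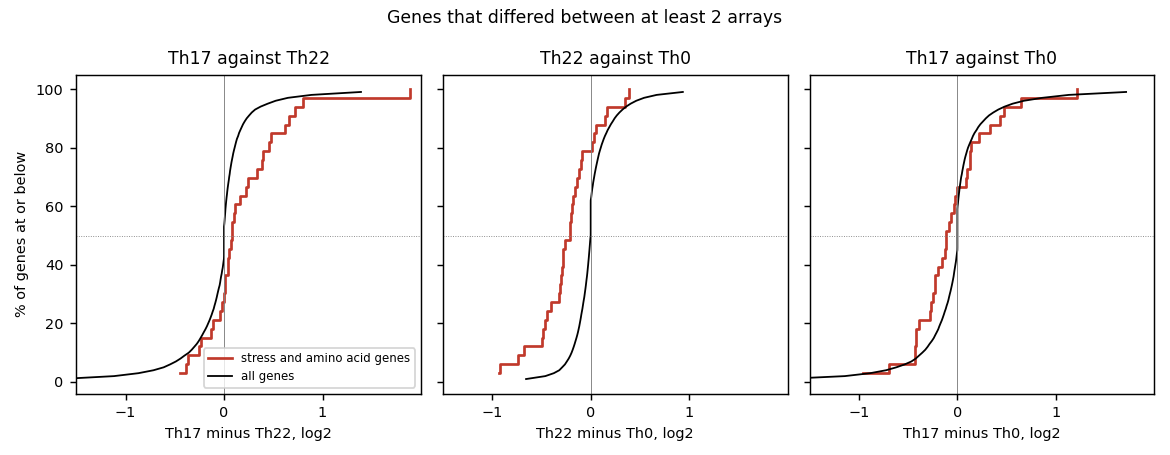
The red steps are the 33 listed genes that differed between at least 2 arrays, the black lines all 12431 genes that did, the horizontal axes the log2 difference named under each panel, and the vertical axis the percentage of genes at or below it. For Th22 against Th0 the red steps lie left of the black line over most of the range, with 26 of the 33 genes below 0.

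By the order of the arrays, 10 of the 33 genes were highest in Th17, 4 in Th22 and 18 in Th0 (30.3%, 12.1% and 54.5%). Among all genes that differed, 29.4% were highest in Th17, 22.1% in Th22 and 29.6% in Th0. Th17 was the lowest array for 8 of the 33, Th22 for 20 and Th0 for 4 (24.2%, 60.6% and 12.1%), against 31%, 27.8% and 22.7% of all genes that differed. Amino acid transporters made up 8 of the 18 genes highest in Th0, and serine and one-carbon enzymes 4.

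Of the 7 response factors in the list, only Nupr1 and Ddit3 differed between any arrays by more than the probe bound. Atf3 and Eif2ak2, which are in a further list described below, also passed it. They were 11.0-fold and 2.06-fold lower in Th17 than in Th0. Atf4, which encodes the central activator of the response and is controlled mostly at translation, had a centred value of 0 in Th17 and 0 in Th22 cells, against 0.11 log2 in Th0 cells. Its mRNA was thus 1.08-fold lower in both cytokine conditions than in Th0, within the probe bound. Atf5, a relative controlled in a similar way, read 0.051 in Th17 and 0 in Th22, against -0.037 log2 in Th0. The genes of the C/EBP partners, Cebpb and Cebpg, each spanned under 0.1 log2. Cebpb read 0.079 in Th17 and 0 in Th22, against -0.016 log2 in Th0, and Cebpg read 0 and -0.015, against 0.069 log2. Ddit3, which encodes the pro-apoptotic factor CHOP, read -0.23 in Th17 and 0.14 in Th22, against 0 in Th0. It was lowest in Th17, 1.29-fold below Th22, just past the probe bound of that comparison. Trib3, which encodes a pseudokinase that restrains ATF4, was equal on all 3 arrays.

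Nupr1 encodes a small chromatin-associated stress protein that is induced by ATF4. Its centred value was 1.21 log2 in Th17 and -0.68 in Th22, against 0 in Th0. The Th17 array was the highest and the Th22 array the lowest, on either side of Th0. Nupr1 was 3.70-fold higher in Th17 than in Th22, which placed it 159th by size among all 19938 genes. It was 2.32-fold higher in Th17 than in Th0 and, in Th22, 1.60-fold below Th0. After quantile normalization, which forces the same spread on every array, Nupr1 was 0.80 log2 higher in Th17 than in Th0 and so under 2-fold there, and its difference for Th22 against Th0 was -1.79 log2, past 2-fold.

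The effectors of the response differed in both directions. Chac1, which encodes an enzyme that degrades glutathione and is a standard readout of ATF4 activity, read 0 in Th17 and -0.45 in Th22, against 0.28 log2 in Th0. It was thus lowest in Th22, 1.66-fold below Th0 and 1.37-fold below Th17. Sesn2, which encodes a leucine sensor that inhibits mTORC1, read -0.023 in Th17 and 0 in Th22, against 0.21 log2 in Th0. Ddit4, which encodes another mTORC1 inhibitor (REDD1), had Th22 as its highest array and Th0 as its lowest, with 0 in Th17 and 0.25 in Th22, against -0.14 log2 in Th0. Vldlr, a lipoprotein receptor gene induced under ER stress, read -0.034 in Th17 and 0.35 in Th22, against 0 in Th0. Ddit4 and Vldlr were therefore highest in Th22, by 1.31-fold and 1.27-fold over Th0.

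The ATF4 and C/EBP partners bind a composite element called CARE, with the letters TGATGNAA. The ER branch acts through the ER stress response elements ERSE, which is CCAAT and CCACG with any 9 bases between them, and ERSE-II, which is ATTGG and CCACG with any 1 base between them. The 250 bases before each RefSeq start (build GRCm38.p6) were searched for these letters on both strands. Of the 37 genes 33 had an entry, 5 of them with more than 1 start, and Slc7a3, Slc7a5, Slc1a5 and Slc38a1 had none. CARE letters were present for 7 of the 33, namely Asns, Chac1, Herpud1, Nupr1, Pycr1, Slc7a11 and Vldlr, against 3.91% of all 27025 genes with an entry. ERSE letters were present for Hspa5 (0.130% of all genes) and ERSE-II letters for Herpud1 (0.037%). Herpud1 thus carried both CARE and ERSE-II letters, and no matches in the list shared bases. A match describes letters and not binding, and the list was drawn from genes already known in this response. The 200 bases before the start are shown for 6 genes, chosen because they carry the letters and because their array orders differ. They are Nupr1 (chr7:126625471-126625670, minus strand), Chac1 (chr2:119351042-119351241, plus strand), Slc7a11 (chr3:50443614-50443813, minus strand), Asns (chr6:7693210-7693409, minus strand), Herpud1 (chr8:94386229-94386428, plus strand) and Hspa5 (chr2:34771890-34772089, plus strand). Each is written 5′ to 3′ on the strand of the gene, with the motif letters of either strand in capitals.
Nupr1: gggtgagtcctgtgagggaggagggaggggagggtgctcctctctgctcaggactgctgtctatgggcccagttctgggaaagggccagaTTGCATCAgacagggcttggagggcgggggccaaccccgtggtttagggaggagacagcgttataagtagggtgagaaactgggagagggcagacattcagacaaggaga
Chac1: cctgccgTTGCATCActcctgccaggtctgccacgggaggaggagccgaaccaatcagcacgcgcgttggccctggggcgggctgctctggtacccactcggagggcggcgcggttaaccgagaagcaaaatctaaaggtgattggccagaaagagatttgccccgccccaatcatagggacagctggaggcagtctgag
Slc7a11: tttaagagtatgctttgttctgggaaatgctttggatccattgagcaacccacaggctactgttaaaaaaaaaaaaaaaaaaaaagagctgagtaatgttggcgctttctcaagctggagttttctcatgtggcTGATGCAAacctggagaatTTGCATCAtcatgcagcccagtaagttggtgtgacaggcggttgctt
Asns: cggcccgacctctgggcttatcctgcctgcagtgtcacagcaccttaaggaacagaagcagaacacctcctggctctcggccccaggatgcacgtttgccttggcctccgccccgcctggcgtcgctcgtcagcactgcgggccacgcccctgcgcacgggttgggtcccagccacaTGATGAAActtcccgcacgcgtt
Herpud1: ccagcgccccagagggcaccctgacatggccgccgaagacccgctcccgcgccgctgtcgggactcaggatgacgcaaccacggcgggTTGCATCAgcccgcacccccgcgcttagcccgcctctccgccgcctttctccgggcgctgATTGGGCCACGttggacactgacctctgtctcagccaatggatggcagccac
Hspa5: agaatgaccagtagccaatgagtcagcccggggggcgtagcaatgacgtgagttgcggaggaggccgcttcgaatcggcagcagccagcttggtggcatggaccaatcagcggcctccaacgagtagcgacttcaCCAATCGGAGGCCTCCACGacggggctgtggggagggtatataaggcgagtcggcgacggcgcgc
By the array orders on which these genes were picked, Chac1, Asns and Hspa5 were highest in Th0 and lowest in Th22, Slc7a11 was highest in Th0 and lowest in Th17, and Nupr1 and Herpud1 were highest in Th17 and lowest in Th22. Hspa5, with ERSE letters 65 to 47 bases before the start, spanned 1.14-fold. The position of the letters also differed, with CARE beginning 193 bases before the start in Chac1, 110 in Nupr1, 66 and 47 in Slc7a11 and 23 in Asns.

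**Figure D3:**
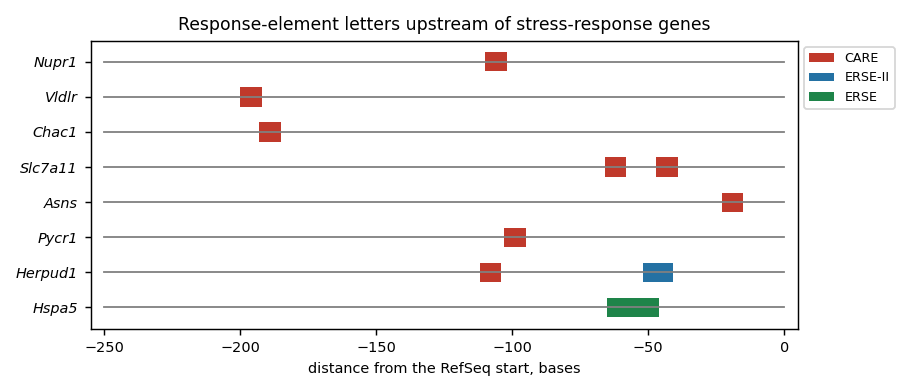
Grey lines are the 250 bases upstream of the RefSeq start of the 8 genes with a match, and coloured blocks mark the letters of CARE, ERSE and ERSE-II on either strand by distance from the start in bases. Slc7a11 has 2 CARE blocks and Herpud1 has 1 CARE and 1 ERSE-II block.

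The amino acid transporters were mostly lower in Th22 than in Th0. None of the 12 was higher in Th22 than in Th0, 11 were lower and Slc36a1, a lysosomal amino acid and proton symporter gene, was equal on all arrays. Their median difference for Th22 against Th0 was -0.28 log2, with a range of -0.93 to 0. For Th17 against Th0 the median was -0.12 log2, with 8 lower and 3 higher, and for Th17 against Th22 it was 0.099 log2, with 9 higher and 2 lower. None reached 2-fold. After quantile normalization the median for Th22 against Th0 was -0.49 log2, and 2 passed 2-fold. The same 11 of the 12 were lower, but values centred at 0 leave that step little room to reverse a direction.

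Among carriers of cationic amino acids, Slc7a3 read -0.037 in Th17 and 0 in Th22, against 0.92 log2 in Th0. It encodes CAT3, an arginine and lysine transporter. Th0 stood apart from the other arrays for this gene, which was 1.95-fold lower in Th17 and 1.90-fold lower in Th22. Slc7a1, which encodes the widely expressed arginine transporter CAT1, had the same placing with a smaller span, at 0 in Th17 and -0.0065 in Th22, against 0.43 log2 in Th0. Slc7a1 was 1.35-fold lower in Th17 and 1.36-fold lower in Th22 than in Th0.

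Slc7a5 and Slc3a2 encode the light chain (LAT1) and heavy chain (CD98) of the main leucine transporter of activated T cells. Slc7a5 read 0 in Th17 and -0.25 in Th22, against 0.15 log2 in Th0, 1.32-fold lower in Th22 against Th0. Slc3a2 read 0 in Th17 and -0.036 in Th22, against 0.13 log2 in Th0, a span of 1.12-fold. Both chains thus had Th0 highest and Th22 lowest, with only Slc7a5 past the probe bound. Slc7a11, which encodes the cystine and glutamate exchanger xCT and also pairs with CD98, read -0.13 in Th17 and 0 in Th22, against 0.30 log2 in Th0. Its Th17 value lay 1.35-fold below Th0. Slc43a1, a carrier of large neutral amino acids, read 0 and -0.12, against 0.089 log2, in the array order of Slc7a5.

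Carriers of small neutral amino acids were lowest in Th22, and most of them were higher in Th17 than in Th22 by more than the probe bound. Slc6a9, which encodes the glycine transporter GLYT1, read 0 in Th17 and -0.81 in Th22, against 0.12 log2 in Th0. The Th22 array stood apart, 1.90-fold below Th0 and 1.75-fold below Th17. After quantile normalization the Slc6a9 differences were -2.35 log2 for Th22 against Th0 and 2.24 log2 for Th17 against Th22, both past 2-fold. Slc1a4, which encodes the serine and alanine transporter ASCT1, read 0.44 in Th17 and -0.28 in Th22, against 0 in Th0, so that Th17 was 1.65-fold above Th22. Slc1a5, which encodes the glutamine transporter ASCT2, spanned less, at 0 in Th17 and -0.082 in Th22, against 0.20 log2 in Th0. The glutamine and alanine transporter genes Slc38a1 and Slc38a2 followed the order of Slc1a4. Slc38a1 read 0.22 in Th17 and -0.18 in Th22, against 0 in Th0, and Slc38a2 read 0.13 and -0.26, against 0. The 2 probes of Slc38a1 both placed Th17 highest and Th22 lowest, with differences of 0.48 and 0.32 log2 for Th17 against Th22.

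**Figure D4:**
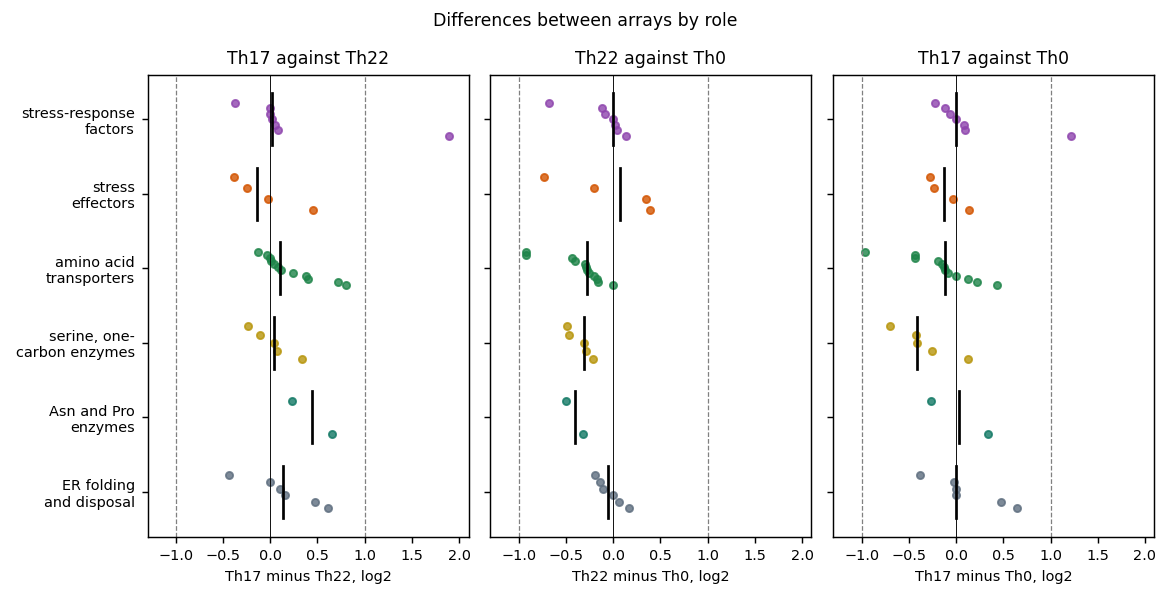
Each point is a gene, placed by its log2 difference between the arrays named over the panel, with black bars at the median of each role and dashed lines at 2-fold. In the Th22 against Th0 panel all 11 transporters that differed and all 5 serine and one-carbon enzymes lie left of 0, and in the other panels only Nupr1 lies beyond a dashed line.

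The serine and one-carbon enzymes make serine from a glycolytic intermediate and pass its carbon to folate for nucleotide synthesis. For Th22 against Th0 all 5 were lower, at a median of -0.31 log2 and a range of -0.49 to -0.21, and for Th17 against Th0 4 of the 5 were lower, at a median of -0.42 log2. None reached 2-fold in any comparison. Between Th17 and Th22 the group was divided, 3 being higher and 2 lower (median 0.037 log2).

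Phgdh, the gatekeeper of the serine pathway, read 0 in Th17 and -0.071 in Th22, against 0.42 log2 in Th0. Psat1, the transaminase that follows it, read -0.11 in Th17 and 0 in Th22, against 0.31 log2 in Th0, and Psph, the phosphatase of the last step, read 0 and -0.037, against 0.25 log2. All 3 synthesis genes thus had Th0 as the highest array, with Th17 and Th22 within 0.12 log2 of each other. Phgdh was 1.33-fold lower in Th17 and 1.40-fold lower in Th22 than in Th0.

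Mthfd2 encodes the mitochondrial folate dehydrogenase that is switched on in dividing cells. It read -0.23 in Th17 and 0 in Th22, against 0.47 log2 in Th0, and was 1.62-fold lower in Th17 and 1.38-fold lower in Th22. This was the widest span of the group. Shmt2, the mitochondrial serine hydroxymethyltransferase that supplies it, was the only enzyme of the group that was not highest in Th0, with 0.12 in Th17 and -0.21 in Th22, against 0 in Th0.

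Asns, which encodes asparagine synthetase and is a classic target of ATF4, read 0 in Th17 and -0.23 in Th22, against 0.27 log2 in Th0. It was 1.41-fold lower in Th22 and 1.20-fold lower in Th17 than in Th0. Aldh18a1, which starts proline synthesis from glutamate, read 0.33 in Th17 and -0.32 in Th22, against 0 in Th0. Both enzymes were lowest in Th22, and Aldh18a1 was 1.58-fold higher in Th17 than in Th22.

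The 6 ER genes showed no common direction against Th0. For Th22 against Th0 3 were lower, 2 higher and 1 equal, with a median of -0.051 log2, and none passed the probe bound. For Th17 against Th0 2 were lower, 2 higher and 2 equal (median 0), and for Th17 against Th22 4 were higher and 1 lower (median 0.13 log2). The medians for Th22 against Th0 were thus -0.28 for the transporters, -0.31 for the serine and one-carbon enzymes and -0.051 log2 for the ER genes, a difference between roles that has no test here.

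Hspa5, which encodes the main ER chaperone BiP, read 0 in Th17 and -0.16 in Th22, against 0.027 log2 in Th0, within the probe bound in every comparison. Xbp1, the transcription factor gene of the IRE1 branch, was equal on all arrays, which does not bear on its splicing. Herpud1 and Dnajb9 were the ER genes highest in Th17. Herpud1, a membrane component of the disposal pathway, read 0.47 in Th17 and -0.14 in Th22, against 0 in Th0. Dnajb9, which encodes the co-chaperone ERdj4 and is a target of XBP1, read 0.48 in Th17 and 0 in Th22, against -0.17 log2 in Th0, and was 1.56-fold higher in Th17 than in Th0. Edem1, which encodes a lectin-like protein that hands misfolded glycoproteins over for disposal, was placed the other way, at -0.39 in Th17 and 0.056 in Th22, against 0 in Th0. Sel1l, the scaffold of the disposal ligase, differed only in Th22, at -0.10 log2.

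Other genes of the same pathways were taken from 8 lists with 158 measured members of 169, and 10 of them passed 2-fold in at least 1 comparison (6.33%, against 3.7% of all genes). Genes equal on all arrays count in that 3.7%. Of the 12431 genes that differed 738 passed 2-fold, so the 10 are not read as an excess. The cytosolic aminoacyl-tRNA synthetases, many of which ATF4 also induces, had small differences in the same direction as the transporters. For Th22 against Th0 17 of 18 were lower and 1 higher (94.4% lower, against 50% of all genes that differed), at a median of -0.18 log2. For Th17 against Th0 16 were lower and 1 higher (88.9% lower, against 45%), at a median of -0.13 log2. None reached 1.5-fold, but 6 were lower than in Th0 by more than the probe bound in Th22 (33.3%, against 2.86% of all genes) and 0 in Th17 (against 5.61%). In the list of eIF2α kinases and translation control, medians of 16 genes lay between -0.070 and 0 log2. It held Atf3, a stress-induced repressor gene, which was 4.25-fold lower in Th17 than in Th22. Against Th0 it was 2.59-fold lower in Th22 and 11.0-fold lower in Th17. Eif2ak2, which encodes the interferon-induced kinase PKR, was lower in Th17 by 2.06-fold against Th0.

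Among 25 genes listed as other amino acid transporters the medians were 0 in all 3 comparisons, and 4 genes passed 2-fold. Slc1a2, a glutamate transporter gene, was 2.25-fold lower in Th22 and 2.16-fold lower in Th17 than in Th0, the same placing as Slc7a3. Slc16a10, an aromatic amino acid transporter gene, was 2.23-fold higher in Th17 than in both Th22 and Th0. Slc38a3, a glutamine transporter gene, was 2.63-fold lower in Th17 than in Th22 and 2.05-fold higher in Th22 than in Th0. Slc43a3, listed by its family and not by a known amino acid substrate, was 2.06-fold higher in Th17 than in Th22. Of 19 other amino acid enzymes only Cth passed 2-fold. It encodes cystathionine gamma-lyase, which makes cysteine and is induced by ATF4, and it was lower in Th17 by 3.21-fold against Th22 and by 4.96-fold against Th0.

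None of 15 other serine, glycine and folate enzymes and none of 32 other ER genes reached 2-fold. For Th22 against Th0 the folate list had a median of -0.043 log2, from 9 lower and 5 higher genes, and the ER list one of -0.027 log2, from 17 and 11. In the folate list 2 genes were lower by more than the probe bound in that comparison (13.3%, against 2.86% of all genes) and 0 higher. For Th17 against Th0 5 were lower by more than it (33.3%, against 5.61%) and 2 higher (13.3%, against 4.68%). Of 25 genes that sense amino acids upstream of mTORC1, Castor1, an arginine sensor gene, was lower in Th17 by 3.23-fold against Th22 and by 2.31-fold against Th0, and Rragd, a Rag GTPase gene, was 2.47-fold higher in Th17 than in Th0. Of Myc and 7 partner genes only Mxd1, which encodes an antagonist of MYC, passed 2-fold, at 2.15-fold higher in Th17 than in Th0. Myc itself read 0 in Th17 and -0.038 in Th22, against 0 in Th0.

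**Figure D5:**
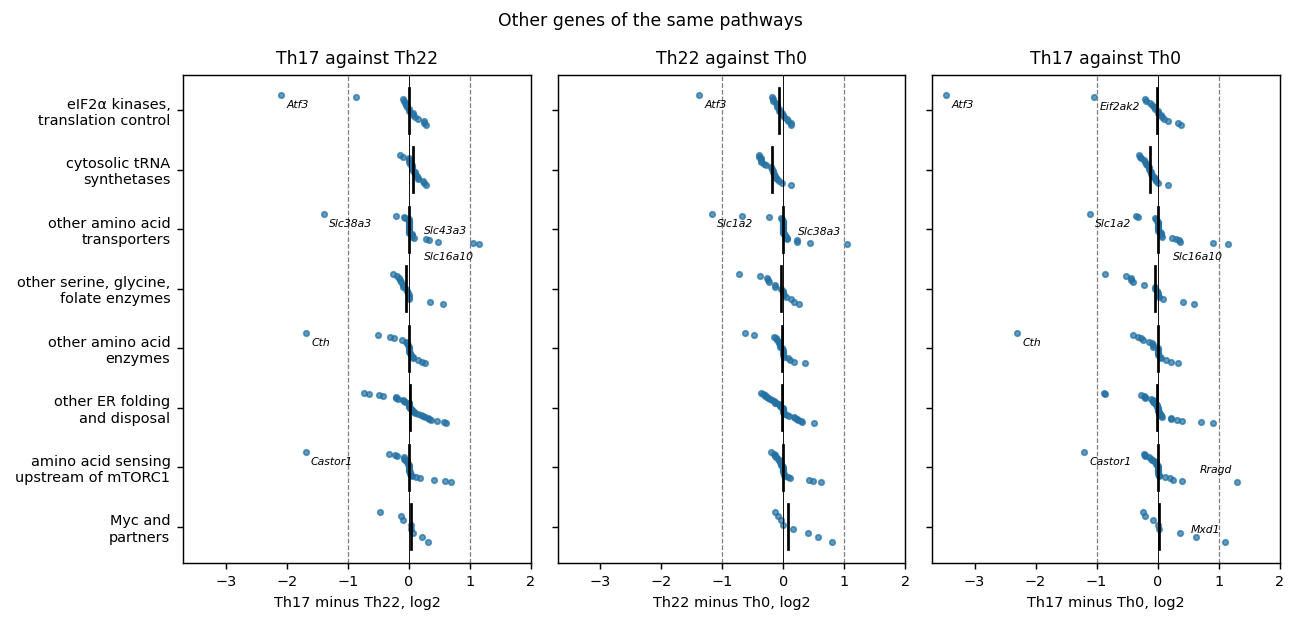
Each point is a gene of 1 of 8 further lists, placed by its log2 difference between the arrays named over the panel, with black bars at list medians, dashed lines at 2-fold and names for genes beyond them. The tRNA synthetase points lie mostly left of 0 in both comparisons with Th0, and in the panel of Th17 against Th0 Atf3 and Cth lie farthest to the left.

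Markers of other cell types differed by at most 0.23 log2 for the myeloid, dendritic, B-cell and plasma-cell lists, while Cd8b1 passed 2-fold. Of 10 T-cell markers 8 were measured, and 8 were higher in Th22 than in Th0 (100%, against 38.1% of all genes that differed, median 0.12 log2). Only 1 of them was higher by more than the probe bound (12.5%, against 4.81% of all genes). In Th17 against Th22 7 were lower (87.5%, against 42.1%, median -0.28 log2), 3 of them by more than the probe bound (37.5%, against 6.13% of all genes). Among 13 myeloid and dendritic markers 8 were equal on all arrays and the widest span was 0.23 log2, and among 9 B-cell and plasma-cell markers 5 were equal and the widest span was 0.16 log2. Lyz2 and Fcgr3 were highest in Th0, at 0.21 and 0.20 log2 above the other arrays, while Cd68 was highest in Th22, at 0.23 log2 above both others. Of the 13 myeloid and dendritic markers 3 were lower and 2 higher than in Th0, in Th22 and likewise in Th17. Of 6 CD8 and NK markers Cd8b1 was lower in Th17 by 2.20-fold against Th22 and by 2.61-fold against Th0, and Eomes was 0.79 log2 lower in Th17 and in Th22 than in Th0. Their part in the differences of the stress and amino acid genes was not tested. The centring removes levels, so the labelled T-cell identity could not be checked against marker levels.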

How the data were processed

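Total RNA of Th17, Th22 and Th0 cells was measured on 1 Affymetrix array each, and samples were grouped by the T-helper subset in their labels. The deposited values of 28853 probes, made by the authors, were taken as log2. The sources used here name no log base, probe summary, background correction or normalization. The values themselves show that each probe's median over the 3 arrays was subtracted, since it is 0 for all 28853. Folds are 2 to the power of the difference and would be larger with natural logs. Higher values were read as more expression. Signal over background, and so depth, is unknown.

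Probes were named from the platform annotation, with symbols updated by Entrez identifier through a RefSeq table of GRCm38.p6, where 21698 of the 21789 single-symbol probes were found. The 1621 probes with several symbols and 5443 unlisted ones were left out. Probes of a gene were averaged, and counts of genes past 2-fold were tested on simulated data. No test between groups was possible with 1 array each, so no p-value is given. All 37 listed genes are described, and of the 8 further lists those past 2-fold in any comparison are named. The members and lists were chosen with earlier results of these data known. The B-cell, T-cell, myeloid and NK marker lists were handled alike. Alternatives were quantile normalization, another centring, another probe summary, probes with several symbols, a 1.5-fold threshold and natural logs. Python 3.11.15, pandas 2.3.3 and numpy 2.4.6 were used. Promoter letters come from RefSeq.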

Additional observations from a re-analysis of the deposited data

How the results depend on the processing

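The 2-fold counts rest on the scale of the values. Quantile normalization, which forces equal spread on the arrays, put 5 genes of the list in place of 1 past 2-fold as higher in Th17 than in Th22, and 4 in place of 0 as lower in Th22 than in Th0. For Th17 against Th0 it gave 0 higher in place of 1 and 1 lower in place of 0. It widened the differences of the Th22 array most: for Th22 against Th0 the difference became -2.35 log2 for Slc6a9, -1.61 for Chac1, -1.79 for Nupr1 and -1.21 for Slc7a3. For Th17 against Th22 it became 2.24 log2 for Slc6a9, 1.27 for Chac1, 1.27 for Aldh18a1 and 1.11 for Slc1a4, and for Th17 against Th0 -1.23 log2 for Slc7a3. Of all genes it left 0.988% past 2-fold as higher and 1.01% as lower for Th17 against Th22, 0.752% and 0.792% for Th22 against Th0, and 1.01% and 1.09% for Th17 against Th0. Reading the values as natural logs gave 3 genes higher in Th17 than in Th22, 3 lower in Th22 than in Th0 and 2 lower in Th17 than in Th0. A 1.5-fold threshold gave 5 higher in Th17 than in Th22, 4 lower in Th22 than in Th0, and 2 higher and 2 lower in Th17 than in Th0. Another centring, another probe summary and keeping probes with several symbols left each of these counts as it was, but they had little room to change them. The array medians used in that centring were 0. The other probe summary could act only on Slc38a1, the only listed gene with several probes. Keeping probes with several symbols could act only on genes that have such a probe. The counts by any amount, an alternative chosen after seeing the data, stayed within 1.5 times under the 4 settings tried. Under quantile normalization 26 were lower in Th22 than in Th0. Values centred at 0 left that normalization little room to reverse a direction, so the unchanged 26 is no separate check. Of 108 differences of single genes quantile normalization moved 26 by more than 1 SD between probes of a gene and took 10 across 2-fold. It reversed 0 of those past 2-fold, but these were differences of Nupr1 alone, and the centring at 0 left little room for a reversal. No replicate could be left out with 1 array per group. No paired analysis was possible because each group has 1 array. What signal over background limits is unknown, since the deposited values hold no levels.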
